A study of Homo sapiens with 8 samples.

Results

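The comparison described here set KDM1A knockout ES2 cells that had received LY500307 against knockout cells that had received vehicle. It rested on 4 of the 8 libraries of the study, 2 with 5 µM LY500307 for 48 h and 2 with vehicle for the same time, chosen by their labels alone. ES2 is a human ovarian cancer line, grown in McCoy's medium with serum, and all 4 libraries came from its KDM1A knockout derivative. The other 4 libraries came from ES2 control cells with the same treatments and were used to estimate the spread between libraries and, where stated, to compare responses. The labels and protocols do not state how the knockout was made, whether it is 1 clone or a pool, which part of the gene was edited or what the vehicle was. Whether the 2 libraries of a group stem from separate cultures is not stated, and the p-values therefore reflect the spread between these libraries alone, which may be technical.

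KDM1A, also called LSD1, demethylates lysine residues of histone H3 and works with the CoREST complex and with nuclear receptors. LY500307 is an agonist of oestrogen receptor beta, the product of ESR2, a nuclear receptor that binds DNA after ligand binding and that is studied in ovarian cancer for its growth-restraining actions. The comparison asks which responses to the agonist are seen in cells with reduced KDM1A transcript. Gene counts totalled 24849008 and 30131097 in the vehicle libraries and 25906633 and 27538721 in the LY500307 libraries, and over all 8 libraries 15233 to 15809 genes had a count. Levels are given in CPM, the count scaled to the size of the library, in the order replicate 1 and replicate 2. Fold changes are on the log2 scale, LY500307 over vehicle, with a standard error (SE), and a gene is said to rise or fall only where the quasi-likelihood test of edgeR, adjusted by Benjamini-Hochberg over all genes tested, gave a p under 0.05. CPM values of different genes are not corrected for length and are not compared with each other.

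The KDM1A transcript (chromosome 1, 23345936 to 23410182, hg19) stood at 75.6 and 77.8 CPM with vehicle and 71.9 and 71.5 CPM with LY500307 in knockout cells. In control cells it stood at 220.0 and 219 CPM with vehicle and 238 and 241 CPM with LY500307, so every library labelled knockout lay below every control library, yet the transcript was still counted in all of them. Its change under LY500307 in knockout cells was -0.10 (SE 0.052) and did not pass (edgeR adjusted p = 0.193). These are counts over the gene, which cannot show where it was edited. The receptor that the agonist addresses had few counts. ESR2 had 10 counts over the 2 vehicle libraries and 12 over the 2 LY500307 libraries of knockout cells, and was left out of testing by the filter. The gene of oestrogen receptor alpha, ESR1, had 16 and 15 counts, too few for the depth to show a difference (log2 -0.11 (SE 0.62), edgeR adjusted p = 0.928). The membrane oestrogen receptor gene GPER stood at 3.32 and 3.28 CPM with vehicle and 2.89 and 3.21 CPM with LY500307, a change of -0.11 (SE 0.21) with an edgeR adjusted p of 0.757.

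LY500307 changed 2759 of 13498 genes tested in knockout cells, or 20.4%. Of these, 1237 (9.16%) rose and 1522 (11.3%) fell. Scaling by library totals in place of TMM turned that balance, to 2287 higher and 954 lower, while it moved the median log2 fold change of all genes tested from 0.01 to 0.07. Most changes were small. The median change was 0.29 among genes that rose and -0.26 among genes that fell, 297 genes changed at least 1.5-fold, and 105 changed at least 2-fold, 84 upwards and 21 downwards. DESeq2 called 2056 genes, and without knockout vehicle replicate 2 edgeR called 1422. Where a gene list's counts moved by over 1.5 times, parentheses after them give the numbers higher and lower, in this order, with any 1 knockout library left out. They add the knockout replicate whose omission gave the fewest calls, where 1 or 2 did, and the numbers with library totals. The direction of change went with the level of expression. Among genes with a mean over 500 CPM in knockout cells, 12 rose and 128 fell of 247 tested, with a median of -0.12. Genes between 1 and 5 CPM moved the other way, 128 higher and 49 lower of 1604, with a median of 0.11. This trend moves with the results on abundant transcripts given below, and its part in them was not tested.

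**Figure D1:**
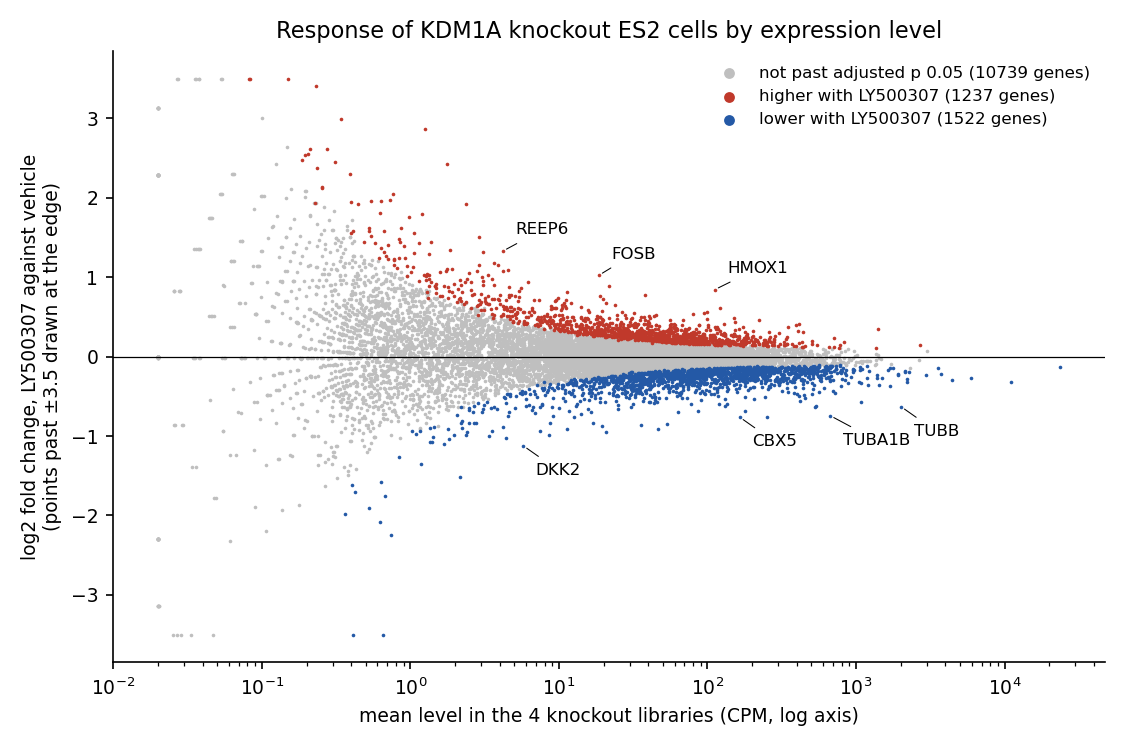
Each point is 1 of 13498 genes tested, placed by its mean CPM in the 4 knockout libraries (log axis) and its log2 fold change under LY500307, coloured red or blue where the adjusted p was under 0.05. At the right edge, above 500 CPM, blue points outnumber red ones 128 to 12, while large rises, such as REEP6 at 1.33, lie at low levels.

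By the naming rule, the largest rises, taken among genes whose mean reached 5 CPM in either knockout group, were led by REEP6, which shapes the endoplasmic reticulum membrane (chromosome 19, 1491165 to 1497926). It stood at 2.55 and 2.24 CPM with vehicle and 5.47 and 6.49 CPM with LY500307, a change of 1.33 (SE 0.18). DISP2, a Dispatched family protein, changed by 1.18 (SE 0.2), the amine oxidase AOC2 by 1.15 (SE 0.2), the axonemal dynein heavy chain DNAH1 by 1.09 (SE 0.19) and the secreted glycoprotein CRISPLD2 by 1.08 (SE 0.16). FOSB, a subunit of the AP-1 transcription factor (chromosome 19, 45971253 to 45978437), stood at 11.7 and 12.8 CPM with vehicle and 23.99 and 25.8 CPM with LY500307, and the log2 fold change was 1.02 (SE 0.099). HMOX1, the enzyme that degrades haem (chromosome 22, 35776354 to 35790207), had the smallest adjusted p among the rises named here, 2.00e-11, with 77.2 and 82.7 CPM with vehicle and 145 and 142 CPM with LY500307. REEP6, DISP2, AOC2, DNAH1, CRISPLD2, TM7SF2, RGS14, HAS3 and PDE4B reached 5 CPM in the treated group alone. Further rises were those of the sterol reductase TM7SF2 (0.94), the glutamate transporter SLC1A3 (0.88), the G protein regulator RGS14 (0.87), the hyaluronan synthase HAS3 (0.87) and the cyclic AMP phosphodiesterase PDE4B (0.82). In all 12 genes both treated libraries lay above both vehicle libraries, a condition of the rule that 30.6% of all genes tested met (58.4% in either direction).

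The largest falls were led by DKK2, a secreted antagonist of WNT signalling (chromosome 4, 107842959 to 108204963). Its level was 8.34 and 7.46 CPM with vehicle and 3.49 and 3.74 CPM with LY500307, a change of -1.12 (SE 0.15) with an edgeR adjusted p of 1.01e-06. RGS5, another G protein regulator, changed by -1.03 (SE 0.18). The leptin receptor LEPR changed by -0.99 (SE 0.12), from levels of 11.2 and 11.7 CPM with vehicle and 6.04 and 5.48 CPM with LY500307. The axon guidance ligand SLIT2 changed by -0.91 (SE 0.12), the hedgehog release protein DISP1 by -0.88 (SE 0.18), the anion exchanger SLC26A4 by -0.84 (SE 0.14) and PKI55 by -0.94 (SE 0.14). RAD54L, a helicase-like protein of homologous recombination (chromosome 1, 46712133 to 46744152), stood at 45.8 and 46.4 CPM with vehicle and 23.2 and 27.6 CPM with LY500307, that is 55.04% of vehicle. ARHGAP22, a GTPase-activating protein, changed by -0.85 (SE 0.066). DKK2, RGS5 and DISP1 reached 5 CPM in the vehicle group alone. CBX5, the heterochromatin protein HP1 alpha (chromosome 12, 54624726 to 54673917), stood at 206 and 208 CPM with vehicle and 126 and 118 CPM with LY500307 (-0.76 (SE 0.048), edgeR adjusted p = 9.41e-14).

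Most alpha- and beta-tubulin genes tested fell. Tubulin dimers of 1 alpha and 1 beta chain build microtubules, and their messages are known to be degraded when free dimers are abundant, through recognition of the first residues of the growing chain. The starts of the coding sequences are shown before the values, for the members that changed and for TUBA4A and TUBB2A, which were tested and did not pass. TUBA8, which was tested and did not pass either, is not shown. TUBG1 and TUBE1 stand beside them as other tubulins. The first 12 bases are in capitals. Sequences are those of GENCODE release 44 transcripts on GRCh37 (hg19), 30 bases from the start codon, each with the position of its start codon.
TUBA1B, chr12:49525081-49525083, minus strand: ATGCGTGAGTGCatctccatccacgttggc
TUBA1C, chr12:49658965-49658967, plus strand: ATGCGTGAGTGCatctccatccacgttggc
TUBA1A, chr12:49582760-49582762, minus strand: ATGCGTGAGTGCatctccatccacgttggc
TUBA4A, chr2:220118578-220118580, minus strand: ATGCGTGAATGCatctcagtccacgtgggg
TUBB, chr6:30688284-30688286, plus strand: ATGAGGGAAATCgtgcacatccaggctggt
TUBB2C, chr9:140135813-140135815, plus strand: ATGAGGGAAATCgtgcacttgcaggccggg
TUBB3, chr16:89989810-89989812, plus strand: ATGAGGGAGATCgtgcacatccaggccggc
TUBB6, chr18:12308292-12308294, plus strand: ATGAGGGAGATCgtgcacatccaggcgggc
TUBB2A, chr6:3157695-3157697, minus strand: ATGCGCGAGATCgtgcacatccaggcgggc
TUBG1, chr17:40761756-40761758, plus strand: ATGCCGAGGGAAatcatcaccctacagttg
TUBE1, chr6:112408635-112408637, minus strand: ATGACCCAGTCGgtggtcgtacaggtcggc
TUBA1A, TUBA1B and TUBA1C share all 30 bases shown. Among beta-tubulins the 12 capitals of TUBB and TUBB2C are identical, TUBB3 and TUBB6 differ from them at 1 base, and TUBB2A differs at 3. TUBA4A differs from TUBA1B at 1. These base differences are synonymous. Within the alpha- and within the beta-tubulins shown, the capitals encode the same residues in members that fell and in TUBA4A and TUBB2A. Whether these residues bear on the changes was not tested. The gamma-tubulin TUBG1 and the epsilon-tubulin TUBE1 differ from TUBA1B at 7 and 6 of the 12 bases and from TUBB at 8 and 7.

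Of 10 alpha- and beta-tubulins tested out of 17 listed, 7 fell and 0 rose, or 70% against 11.3% lower over all genes tested, with a median of -0.42 against 0.01. TUBA1B (chromosome 12, 49521565 to 49525180) had the largest fall of them and stood at 812 and 862 CPM with vehicle and 496 and 505 CPM with LY500307. The change was -0.74 (SE 0.042), with an edgeR adjusted p of 9.27e-15. TUBB, the most common beta-tubulin outside the nervous system (chromosome 6, 30685212 to 30693315), stood at 2339 and 2543 CPM with vehicle and 1605 and 1549 CPM with LY500307, a change of -0.63 (SE 0.039). TUBA1C changed by -0.47 (SE 0.045), TUBB6 by -0.46 (SE 0.042), TUBB3 by -0.46 (SE 0.054) and TUBB2C, now named TUBB4B, by -0.39 (SE 0.043). For these 6 genes the treated libraries stood at unequal shares of vehicle, 59.8% for TUBA1B, 64.6% for TUBB and 72.2% to 76.4% for the other 4. TUBA1A stood at 61.98 and 61.98 CPM with vehicle and 51.5 and 50.2 CPM with LY500307, a smaller change of -0.29 (SE 0.061). TUBB2A at -0.12, TUBA4A at -0.39 and TUBA8 at 0.10 did not pass (edgeR adjusted p = 0.602, 0.693 and 0.925). The estimate of TUBA4A was that of TUBB2C, which passed, so its missing call does not show that it was unchanged. Another 7 of the 17 listed had too few counts to be tested, of which 4 had none in knockout cells. Without any single knockout library 7 were again lower. Tubulin copies share sequence, reads that align to several places were not assigned to genes, and the split between copies is uncertain.

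**Figure D2:**
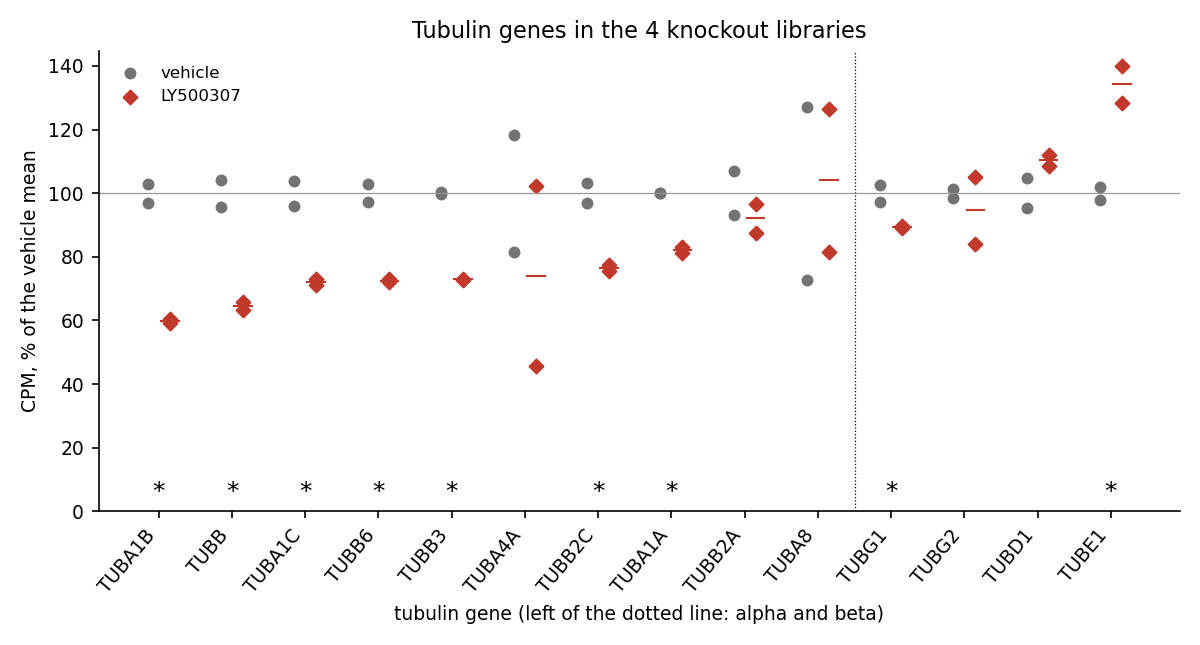
Each point is 1 knockout library, as a percentage of the vehicle mean of that gene, grey for vehicle and red for LY500307, with a red line at the treated mean and an asterisk where the adjusted p was under 0.05. The treated libraries of 7 alpha- and beta-tubulins have means of 59.8% to 82.1% of vehicle, while the mean of TUBE1 is 134%.

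TUBE1, a tubulin of centrioles (chromosome 6, 112391866 to 112408732), stood at 19.3 and 18.5 CPM with vehicle and 24.3 and 26.5 CPM with LY500307 (0.43 (SE 0.091), edgeR adjusted p = 8.25e-04). The gamma-tubulin TUBG1, which nucleates microtubules, changed by -0.16 (SE 0.059) with an edgeR adjusted p of 0.0489, close to the threshold, and that call was lost with library totals, with DESeq2, in a fit of the 4 knockout libraries alone, and when any 1 of the 4 libraries of knockout cells was left out (adjusted p 0.0535 to 0.285). TUBG2 at -0.08 and TUBD1 at 0.14 did not pass. Of 20 tubulin folding factors and microtubule regulators, 2 rose and 5 fell (1 to 2 and 3 to 4 with 1 left out, fewest without vehicle 1 or LY500307 2, and 4 and 3 with totals). The folding cofactor TBCD changed by -0.42 (SE 0.062), stathmin STMN1, which binds free dimers, by -0.26 (SE 0.041), and its neural relative STMN3 by -0.37 (SE 0.084). The end-binding protein MAPRE2 stood at 35.8 and 36.1 CPM with vehicle and 44.8 and 46.02 CPM with LY500307. In control cells, where 12.3% of genes tested rose and 14% fell, 6 of the 10 alpha- and beta-tubulins fell, with a median of -0.44, and TUBA1B changed by -0.68 (SE 0.041) there. TUBA1A was at 0.05 in control cells, and its response differed between the populations by -0.34 (SE 0.086) (edgeR adjusted p = 0.0325), 1 of 218 genes (1.62%) whose response differed. That difference was lost when any 1 of the 8 libraries other than knockout LY500307 replicate 1 was left out (adjusted p 0.0596 to 0.122).

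Most genes of DNA replication fell. Origins are licensed in G1 by loading of the MCM helicase, and E2F factors raise transcription of replication genes as cells enter S phase. Stretches of 60 bases from promoters of members that fell are shown here because they hold E2F motifs, with the motif in capitals. The motifs searched on both strands were TTTCCCGC, TTTCGCGC, TTTGCCGC and TTTGGCGC, which can overlap each other in opposite directions. Sequences are from RefSeq, GRCh38.p14, 5′ to 3′ on the strand of the gene, within the window from 250 bases before to 50 after its start.
MCM3, chr6:52284883-52284942, minus strand: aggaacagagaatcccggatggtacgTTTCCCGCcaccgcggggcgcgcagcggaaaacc
MCM6, chr2:135876496-135876555, minus strand: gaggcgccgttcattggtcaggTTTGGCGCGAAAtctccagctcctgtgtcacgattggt
TYMS, chr18:657588-657647, plus strand: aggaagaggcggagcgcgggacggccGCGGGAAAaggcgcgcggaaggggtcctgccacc
PCNA, chr20:5126648-5126707, minus strand: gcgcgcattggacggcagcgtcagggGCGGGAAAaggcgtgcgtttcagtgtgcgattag
E2F1, chr20:33686386-33686445, minus strand: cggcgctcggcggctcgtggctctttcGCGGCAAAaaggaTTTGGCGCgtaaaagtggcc
RBL1, chr20:37095998-37096057, minus strand: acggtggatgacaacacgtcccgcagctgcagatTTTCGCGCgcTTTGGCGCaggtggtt
Promoter sequences of 300 bases were found by symbol for 20 of 23 MCM and licensing genes, and 10 of these (50%) held a motif. For DNA synthesis genes it was 10 of 29 (34.48%), and for cyclins, kinases and E2F factors 6 of 27 (22.22%). Among all 27305 promoters 908 (3.325%) held one, and among 9262 promoters of genes tested 496 (5.355%). Promoters of mitosis genes held a motif in 2 of 33 (6.061%) and those of matrix genes in 0 of 29. A match describes letters in this window and is not a measured site.

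Of 23 MCM and origin licensing genes, all of them tested, 15 fell and 0 rose (0 and 11 to 12 with 1 left out, fewest without vehicle 2, and 1 and 11 with totals), with a median of -0.20. MCM5, a subunit of the replicative helicase (chromosome 22, 35796127 to 35821424), stood at 157 and 159.5 CPM with vehicle and 99.2 and 107 CPM with LY500307, a change of -0.62 (SE 0.054). The treated libraries lay far below both vehicle libraries, which differed from each other by little. MCM3, shown above, changed by -0.41 (SE 0.044), the helicase partner CDC45 by -0.49 (SE 0.073) and the GINS subunit GINS1 by -0.39 (SE 0.061). Among 34 genes of DNA synthesis and nucleotide supply 19 fell and 0 rose (0 and 17 to 19 with 1 left out, fewest without vehicle 2, and 1 and 18 with totals), with a median of -0.25. RRM2, the regulated subunit of ribonucleotide reductase (chromosome 2, 10260825 to 10351851), stood at 524 and 508 CPM with vehicle and 382 and 358 CPM with LY500307, a change of -0.48 (SE 0.043). Thymidylate synthase TYMS stood at 184 and 183 CPM with vehicle and 135 and 135 CPM with LY500307, both treated libraries being almost equal (-0.44 (SE 0.044)). The chromatin assembly subunit CHAF1A changed by -0.47 (SE 0.058). TOP2A, the topoisomerase that untangles replicated DNA (chromosome 17, 38544777 to 38574148), stood at 675 and 619.8 CPM with vehicle and 419.6 and 422 CPM with LY500307, a change of -0.62 (SE 0.043) with an edgeR adjusted p of 1.86e-12. In RNA from whole cultures, fewer cells in S phase and less transcript per cell cannot be told apart.

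In the list of cyclins, cyclin-dependent kinases, inhibitors and E2F factors 13 of 33 fell and 3 rose (2 to 3 and 10 to 14 with 1 left out, fewest without vehicle 2, and 5 and 12 with totals). The mitotic kinase CDK1 (chromosome 10, 62538089 to 62554610) stood at 294 and 276 CPM with vehicle and 199.9 and 199.9 CPM with LY500307, a change of -0.51 (SE 0.047). Cyclin E2 (CCNE2), which drives entry into S phase, changed by -0.57 (SE 0.067), the kinase inhibitor CDKN2C by -0.64 (SE 0.08) and the repressor E2F8 by -0.61 (SE 0.087). The 3 that rose, named after their values were seen, were E2F5 (0.62 (SE 0.11)), the mitotic cyclin CCNB1 (0.22 (SE 0.045)) and the inhibitor CDKN2B (0.49 (SE 0.11)). Genes of mitosis and cytokinesis moved both ways, 7 higher and 12 lower of 41 (3 to 8 and 8 to 10 with 1 left out, fewest without vehicle 2 or LY500307 1, and 14 and 6 with totals), with a median of 0.01. UBE2C, which supplies the anaphase-promoting complex with ubiquitin, stood at 156 and 155 CPM with vehicle and 114 and 102 CPM with LY500307 (-0.53 (SE 0.053)), and the furrow protein ANLN changed by -0.27 (SE 0.041). AURKA, a kinase of the spindle poles (chromosome 20, 54944445 to 54967393), stood at 152 and 151 CPM with vehicle and 199.7 and 194 CPM with LY500307 (0.38 (SE 0.046)), and the kinesin KIF18A changed by 0.38 (SE 0.056). So UBE2C and AURKA, both expressed in mitosis, moved in opposite directions. Treated and vehicle libraries did not overlap in either, as in 58.4% of all genes tested.

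**Figure D3:**
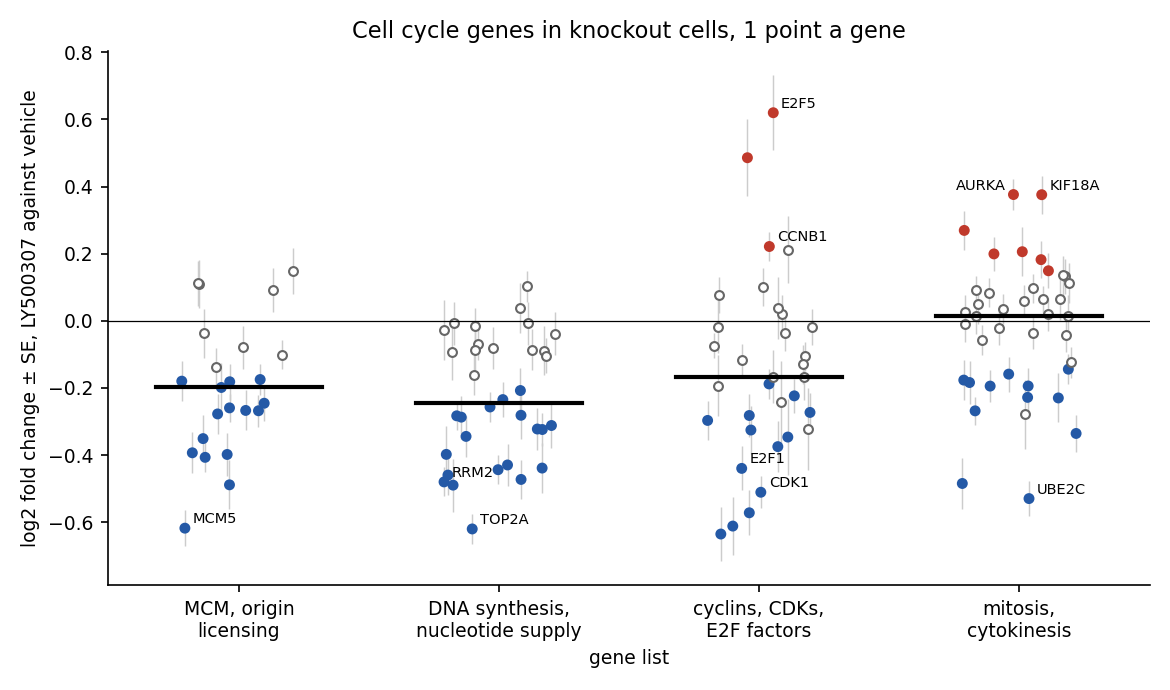
Each point is a gene of 1 of 4 lists, with its log2 fold change and SE in knockout cells, filled where the adjusted p was under 0.05 (red higher, blue lower). Bars mark medians of -0.20, -0.25, -0.17 and 0.01 from left to right.

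Some repair genes fell as well. Of 36 genes of homologous recombination, the Fanconi pathway and mismatch repair 14 fell and 0 rose (0 and 10 to 12 with 1 left out, fewest without vehicle 1 or vehicle 2, and 3 and 9 with totals), with a median of -0.13. Besides RAD54L these included FANCI, which is loaded on DNA at crosslinks (151 and 158 CPM with vehicle and 110.2 and 118 CPM with LY500307, -0.44 (SE 0.051)), the helicase BRIP1 (-0.43 (SE 0.066)) and FANCA (-0.43 (SE 0.07)). Of 25 targets of p53 3 were higher and 2 lower (2 to 3 and 0 to 1 with 1 left out, and 5 and 0 with totals), or 20% called against 20.4% of all genes tested. PLK2, a stress-induced kinase, changed by 0.32 (SE 0.052) and PHLDA3, an AKT inhibitor, by 0.68 (SE 0.11). Of 17 histone genes tested, 5 rose and 4 fell (3 to 5 and 2 to 4 with 1 left out, fewest without vehicle 2, and 5 and 3 with totals). The replication-independent H2AFX, a marker of DNA damage when phosphorylated, stood at 119 and 128 CPM with vehicle and 88.02 and 89.7 CPM with LY500307 (-0.47 (SE 0.055)), while HIST1H2BD, from a family of near-identical copies and so uncertain, stood at 1.13 and 0.870 CPM with vehicle and 3.41 and 4.12 CPM with LY500307 (1.92 (SE 0.25)). The linker histone H1F0, which accumulates in resting cells, changed by 0.49 (SE 0.073). In control cells 13 licensing, 18 synthesis, 16 cyclin and E2F and 21 repair genes fell, and 0, 0, 2 and 1 rose. Over all genes tested 14% fell and 12.3% rose there. Of these lists' members, MCM5 (-0.28, edgeR adjusted p = 0.0495), TOP2A (-0.41, 9.14e-05), CDK1 (-0.38, 0.00109) and UBE2C (-0.40, 0.00195) had the lower response in knockout cells. The higher response was that of E2F5 (0.56, 0.0443) and, chosen after their values were seen, CDK6 (0.26, 0.0209) and MKI67 (0.22, 0.0357). The difference of MCM5 was lost when any 1 of the 8 libraries other than control vehicle replicate 2 or knockout LY500307 replicate 2 was left out (adjusted p 0.0748 to 0.269).

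Most genes of the extracellular matrix fell in knockout cells. Collagens, laminins and fibronectin form the scaffold around cells, and lysyl oxidases crosslink it. Of 37 matrix genes tested out of 42 listed, 21 fell and 2 rose (0 to 2 and 16 to 22 with 1 left out, fewest without vehicle 2, and 2 and 16 with totals), with a median of -0.22. COL6A3, a chain of the microfibrillar collagen VI (chromosome 2, 238232646 to 238322971), stood at 320.4 and 312 CPM with vehicle and 172 and 203 CPM with LY500307, a change of -0.75 (SE 0.053) with an edgeR adjusted p of 1.86e-12. COL1A1, the main chain of collagen I (chromosome 17, 48261462 to 48278993), stood at 218 and 224 CPM with vehicle and 127 and 149 CPM with LY500307 (-0.68 (SE 0.051)). Tenascin C (TNC) stood at 503 and 502 CPM with vehicle and 335 and 348 CPM with LY500307 (-0.56 (SE 0.044)), and fibronectin (FN1, chromosome 2, 216225163 to 216300796) at 883 and 897 CPM with vehicle and 674 and 707 CPM with LY500307 (-0.37 (SE 0.038)). In each of the 4 both treated libraries lay below both vehicle libraries by far more than duplicates differed, an order that 27.8% of all genes tested had. The 2 matrix genes that rose, named after their values were seen, were THBS1 (0.34 (SE 0.074)) and the laminin chain LAMA1 (0.27 (SE 0.074)).

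This fall differed from the response of control cells. There 7 matrix genes rose and 8 fell, with a median of -0.01, and the difference in response itself passed for 14 of the 37, all of them lower in knockout cells, against 1.09% of all genes tested. Counts of members whose response differed were not repeated under the alternatives, for this or any other list. Closest to the threshold were COL6A2 (edgeR adjusted p = 0.0490), LOXL2 (0.0443) and LOX (0.0236). FN1 stood at 3475 and 3367 CPM with vehicle and 3351 and 3507 CPM with LY500307 in control cells, a change of 0.00 (SE 0.037), and the responses differed by -0.37 (SE 0.053) (edgeR adjusted p = 4.66e-05). For COL1A1 the control levels were 1193 and 1251 CPM with vehicle and 1069 and 1131 CPM with LY500307, a change of -0.15 (SE 0.047) against -0.68, a difference of -0.53 (SE 0.07) (edgeR adjusted p = 1.22e-05). COL6A3 differed by -0.36 (SE 0.076), a call lost without control LY500307 replicate 1 and without knockout LY500307 replicate 1 (adjusted p 0.0526 to 0.0569), and TNC by -0.30 (SE 0.064), lost without control vehicle replicate 1 and without control LY500307 replicate 2 (adjusted p 0.0687 to 0.110). Differences of the other 10 members ranged from -0.87 for TGFBI (0.91 in control and 0.05 in knockout cells) to -0.23 for LOX. LAMB2 and LAMB1, chosen after their values were seen, rose in control cells (0.32 and 0.13) and fell in knockout cells (-0.40 and -0.19). COL1A1 and FN1 had lower levels in vehicle-treated knockout than in vehicle-treated control cells, and the part of that baseline in the differences was not tested. With 1 knockout population and 1 control population, loss of KDM1A and anything else in which the 2 populations differ cannot be told apart, here and wherever responses are compared.

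**Figure D4:**
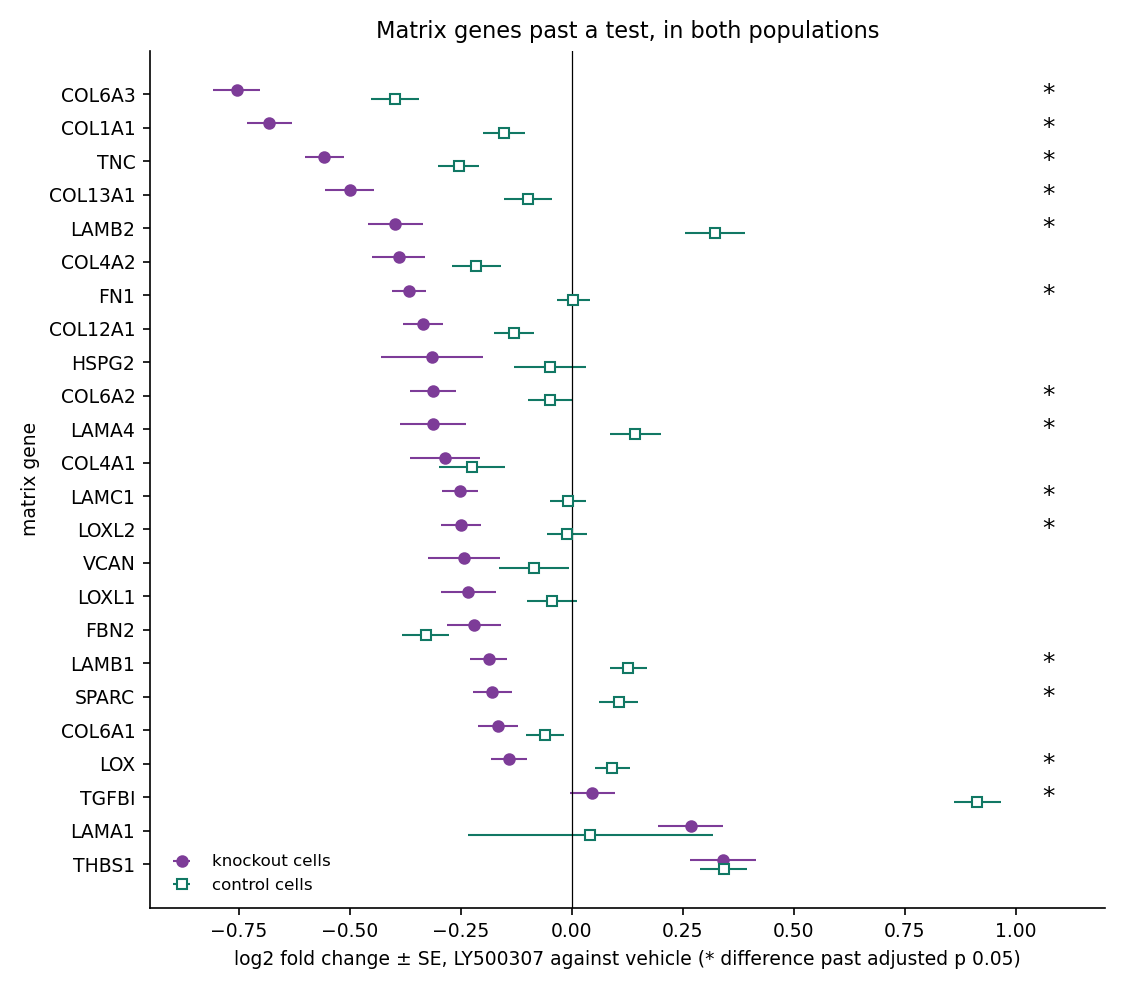
Matrix genes that passed in knockout cells or in the difference are placed by their log2 fold change under LY500307, ± SE, in knockout cells (filled circles) and control cells (open squares). An asterisk marks the 14 genes whose response differed, among which LAMB1 and LAMB2 lie on opposite sides of 0 in the 2 populations.

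Several receptors and enzymes that act on the matrix changed as well. Of 31 integrin and focal adhesion genes 12 fell and 1 rose (1 and 9 to 12 with 1 left out, fewest without vehicle 2 or LY500307 1, and 3 and 9 with totals). Caveolin CAV1 changed by -0.31 (SE 0.038), the actin crosslinkers FLNA and ACTN4 by -0.31 (SE 0.041) and -0.30 (SE 0.04), and the leukocyte integrin chain ITGB2 by -0.51 (SE 0.073). The response of ITGB2 differed from that of control cells by -0.58 (SE 0.1) (edgeR adjusted p = 7.24e-04). Among 20 metalloproteinases and inhibitors 6 rose and 3 fell (2 to 4 and 2 with 1 left out, fewest without vehicle 2, and 8 and 1 with totals). The gelatinase MMP2 (chromosome 16, 55423612 to 55540603) stood at 653 and 652 CPM with vehicle and 768 and 760.5 CPM with LY500307 (0.23 (SE 0.047)), against 1.003 (SE 0.06) in control cells, a difference of -0.77 (SE 0.076). Its control libraries stood at 38.6 and 41.2 CPM with vehicle and 74.1 and 85.9 CPM with LY500307, all below the knockout libraries. The collagenase MMP1 changed by -0.14 (SE 0.031), a call lost with library totals (adjusted p 0.0578), and the inhibitor TIMP1 by -0.24 (SE 0.049). Genes of the plasminogen system fell in 4 of 13 and rose in 2 (0 to 2 and 3 to 5 with 1 left out, fewest without vehicle 2, and 3 and 3 with totals). The inhibitor of tissue factor TFPI changed by -0.47 (SE 0.044), the plasminogen receptor subunit ANXA2 by -0.43 (SE 0.042) and the activator PLAT, from 342 and 343 CPM with vehicle and 265 and 268 CPM with LY500307, by -0.36 (SE 0.04). In control cells PLAT was at 0.06, and the responses differed by -0.43 (SE 0.055) (edgeR adjusted p = 7.97e-06). Of 17 actin and SRF target genes 6 fell and 1 rose, among them non-muscle myosin MYH9 (-0.33 (SE 0.038)), cofilin CFL1 (-0.36 (SE 0.042)) and ACTB (-0.24 (SE 0.039)). Targets of YAP fell in 8 of 28 and rose in 2 (1 to 2 and 6 to 10 with 1 left out, fewest without vehicle 2, and 5 and 6 with totals), led by CTGF (-0.41 (SE 0.039)), a matricellular protein, and MYOF (-0.27 (SE 0.037)).

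Most messages of the translation machinery fell, by small amounts. Ribosomal proteins and several translation factors are encoded by messages with a terminal oligopyrimidine (TOP) start, whose use is coupled to growth signals. Of 76 ribosomal protein genes tested 48 fell and 1 rose (0 to 1 and 32 to 56 with 1 left out, fewest without LY500307 2, and 1 and 36 with totals), with a median of -0.19. Abundance moves with this result, and its part was not tested. Of this list 63.2% fell, against 51.82% of all genes tested over 500 CPM, 24.93% from 100 to 500 and 12.05% from 20 to 100. These shares include members of the list, and RPS16, given next, lay below 500 CPM. RPS16 stood at 383 and 424 CPM with vehicle and 315 and 277 CPM with LY500307, the 2 treated libraries differing from each other as well as from vehicle (-0.45 (SE 0.052)). RPL10 changed by -0.38 (SE 0.045), RPL13A by -0.39 (SE 0.049) and RPLP0, of the ribosomal stalk, by -0.26 (SE 0.039). Ribosomal protein genes have many processed copies, which makes single values uncertain. Among 16 translation factors and other genes with TOP messages 10 fell and 0 rose. The elongation factor EEF2 stood at 6467 and 6561 CPM with vehicle and 5313 and 5535 CPM with LY500307 (-0.26 (SE 0.036)), EEF1D changed by -0.28 (SE 0.046), the poly(A)-binding protein PABPC1 by -0.22 (SE 0.036) and vimentin (VIM), an intermediate filament protein that the list holds for its message, by -0.32 (SE 0.032).

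Host genes of small nucleolar RNAs, several of which carry TOP starts as well, fell in 9 of 16 and rose in 0 (0 and 6 to 9 with 1 left out, and 0 and 5 with totals), with a median of -0.22. SNHG12 stood at 36.2 and 35.2 CPM with vehicle and 25.7 and 27.2 CPM with LY500307 (-0.43 (SE 0.081)), KIAA0114 changed by -0.58 (SE 0.07), SNHG6 by -0.30 (SE 0.058) and SNHG8 by -0.39 (SE 0.079). In control cells 15 of the 16 fell, with a median of -0.50, and the difference in response passed for 4, all less lowered in knockout cells, against 0.526% of all genes tested. SNHG4, 1 of these, stood at 16.4 and 17.7 CPM with vehicle and 16.98 and 18.2 CPM with LY500307 in knockout and at 19.3 and 16.97 CPM with vehicle and 12.1 and 11.1 CPM with LY500307 in control cells, a difference in response of 0.69 (SE 0.14) (edgeR adjusted p = 0.00633), which was lost without control vehicle replicate 1 and without control LY500307 replicate 2 (adjusted p 0.0614 to 0.0625). Genes of MYC and ribosome biogenesis rose in 8 of 38 and fell in 2 in knockout cells (3 to 5 and 1 to 2 with 1 left out, and 16 and 1 with totals), with a median of 0.07. In control cells 1 of them rose and 13 fell (median -0.09). DDX10 changed by 0.38 (SE 0.062), the RNA polymerase subunit POLR1C by 0.30 (SE 0.064) and the rRNA methyltransferase NOP2 by 0.19 (SE 0.047). The snoRNP protein NOP56 changed by -0.18 (SE 0.041). The difference itself passed for 1 member, so the separation of the 2 counts was shown by the test for that gene alone. Of 57 nuclear-encoded oxidative phosphorylation genes 20 fell and 0 rose (0 and 11 to 23 with 1 left out, fewest without vehicle 1, and 5 and 11 with totals). COX6B1 (-0.31 (SE 0.061)) and UQCRH (-0.27 (SE 0.058)) led them.

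Lists of stress responses held more genes that rose than fell. The integrated stress response acts through the transcription factor ATF4 on amino acid supply and tRNA charging, and heat shock and endoplasmic reticulum (ER) chaperones answer misfolded protein. Of 33 genes of the integrated stress response 15 rose and 2 fell (12 to 14 and 1 to 2 with 1 left out, fewest without vehicle 2, and 23 and 1 with totals), against 9.16% and 11.3% over all genes tested, with a median of 0.15. SLC3A2, the shared chain of amino acid exchangers (chromosome 11, 62623476 to 62656352), stood at 347 and 365 CPM with vehicle and 463 and 483 CPM with LY500307 (0.41 (SE 0.046)). The pseudokinase TRIB3, a target of ATF4 and CHOP, changed by 0.39 (SE 0.058) and CTH, which makes cysteine, by 0.55 (SE 0.083). ATF4 itself was at -0.02 and did not pass (edgeR adjusted p = 0.801), and fell in control cells (-0.27). The difference in response passed for 4 of the 33, all higher in knockout cells, against 0.526% of all genes tested. Besides VEGFA, and chosen after their values were seen, these were ATF4 (0.25, edgeR adjusted p = 0.0324), CHAC1 (1.47, 0.00705) and SLC7A5 (0.30, 0.0175). CHAC1 was low in knockout cells, at 0.810 and 0.669 CPM with vehicle and 2.14 and 1.89 CPM with LY500307. In control cells it stood at 6.86 and 7.93 CPM with vehicle and 7.41 and 7.13 CPM with LY500307. VEGFA stood at 87.6 and 89.2 CPM with vehicle and 115 and 113 CPM with LY500307 (0.37 (SE 0.053)) and, at 0.06 in control cells, differed in response by 0.31 (SE 0.073) (edgeR adjusted p = 0.0200), which was lost when any 1 of the 8 libraries other than control vehicle replicate 1 or knockout LY500307 replicate 2 was left out (adjusted p 0.0690 to 0.107). Of 20 cytosolic tRNA synthetases 8 rose and 2 fell (1 to 8 and 2 with 1 left out, fewest without vehicle 2, and 12 and 2 with totals). TARS changed by 0.18 (SE 0.043), AARS by 0.17 (SE 0.041) and VARS by -0.29 (SE 0.048), and without knockout vehicle replicate 2 the number that rose was 1.

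Cytosolic heat shock genes rose in 14 of 22 and fell in 1 (7 to 12 and 0 to 1 with 1 left out, fewest without LY500307 1, and 15 and 0 with totals), with a median of 0.16. The inducible chaperones HSPA1A and HSPA1B, near-identical copies that reads can be split between, stood at 17.1 and 14.6 CPM with vehicle and 24.3 and 26.3 CPM with LY500307 and at 14.98 and 14.98 CPM with vehicle and 26.1 and 23.6 CPM with LY500307. Both rose, with 0.68 (SE 0.095) and 0.73 (SE 0.097). The cochaperone DNAJA1 changed by 0.32 (SE 0.047) and the exchange factor HSPH1 by 0.29 (SE 0.044). Among 29 genes of ER chaperones and the unfolded protein response 11 rose and 3 fell (6 to 9 and 1 to 2 with 1 left out, fewest without vehicle 2, and 12 and 2 with totals). HSPA5, the main chaperone of the ER (chromosome 9, 127997132 to 128003661), stood at 1241 and 1247 CPM with vehicle and 1621 and 1540.2 CPM with LY500307 (0.35 (SE 0.038)). HERPUD1, which serves degradation of ER proteins, changed by 0.44 (SE 0.052), the transcription factor XBP1 by 0.27 (SE 0.05) and the disulphide isomerase P4HB by -0.20 (SE 0.041). In control cells 13, 12 and 8 members of the integrated stress, heat shock and ER lists rose, and 6, 2 and 7 fell. Over all genes tested 12.3% rose and 14% fell there.

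Oxidative stress genes were divided. Of 31 targets of NRF2 and genes of glutathione and iron 3 rose and 6 fell (2 and 3 to 5 with 1 left out, fewest without vehicle 2, and 6 and 3 with totals). HMOX1, above, had the largest change. Thioredoxin reductase TXNRD1 stood at 1352 and 1342 CPM with vehicle and 1064 and 1042 CPM with LY500307 (-0.36 (SE 0.037)) and the pentose phosphate enzymes TALDO1 and TKT changed by -0.31 (SE 0.051) and -0.26 (SE 0.042). Of 9 aryl hydrocarbon receptor and xenobiotic genes tested 3 rose and 1 fell (1 to 2 and 0 with 1 left out, fewest without vehicle 1 or vehicle 2, and 5 and 0 with totals), among them AHR itself (0.30 (SE 0.074)). Metallothioneins and zinc transport genes, 5 tested of 12, had 1 higher and 1 lower (0 to 1 and 0 to 1 with 1 left out, fewest without LY500307 2, and 2 and 1 with totals).

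In the list of hypoxia and glycolysis 15 of 37 rose and 9 fell (12 to 14 and 5 to 8 with 1 left out, fewest without vehicle 2, and 17 and 7 with totals). The 9 that fell were all glycolytic enzymes, with GAPDH at 4827 and 4978 CPM with vehicle and 4043 and 3931 CPM with LY500307 (-0.30 (SE 0.035)), pyruvate kinase PKM2 at -0.29 (SE 0.035) and phosphofructokinase PFKL at -0.36 (SE 0.051). Among the 15 that rose were PFKFB4 and CA9. PFKFB4, which makes the activator of phosphofructokinase, stood at 17.5 and 19.5 CPM with vehicle and 28.3 and 29.7 CPM with LY500307 (0.64 (SE 0.086)). The carbonic anhydrase CA9, chosen after its value was seen, stood at 11.4 and 16.4 CPM with vehicle and 22.4 and 25.03 CPM with LY500307 (0.76 (SE 0.11)). Cholesterol synthesis genes rose in 8 of 27 and fell in 2 (4 to 6 and 0 to 2 with 1 left out, fewest without vehicle 2, and 13 and 0 with totals). CYP51A1, a sterol demethylase, stood at 53.8 and 51.1 CPM with vehicle and 67.2 and 70.4 CPM with LY500307 (0.39 (SE 0.063)), and TM7SF2 at 3.36 and 4.98 CPM with vehicle and 8.10 and 8.14 CPM with LY500307. Squalene epoxidase SQLE changed by 0.29 (SE 0.059). Of 11 targets of the sterol receptor LXR 3 fell and 1 rose (0 to 1 and 1 to 5 with 1 left out, fewest without vehicle 2, and 2 and 2 with totals). ABCA1, which exports cholesterol (chromosome 9, 107543287 to 107690436), stood at 37.9 and 37.9 CPM with vehicle and 25.00 and 24.9 CPM with LY500307 (-0.60 (SE 0.081)). In control cells it stood at 12.96 and 11.7 CPM with vehicle and 12.7 and 13.1 CPM with LY500307, a change of 0.07 (SE 0.1), and the responses differed by -0.67 (SE 0.13) (edgeR adjusted p = 0.00270). Among 23 genes of fatty acid synthesis and lipid droplets 4 rose and 5 fell (3 to 4 and 2 to 5 with 1 left out, fewest without vehicle 2, and 6 and 3 with totals), with the droplet coat PLIN2 at 0.52 (SE 0.071), FADS1 at 0.26 (SE 0.046), ACSL4 at -0.32 (SE 0.045) and fatty acid synthase FASN at -0.29 (SE 0.052). In the autophagy and lysosome list of 44 genes 5 were higher and 3 lower (2 to 5 and 1 to 3 with 1 left out, fewest without LY500307 1, and 11 and 1 with totals), or 18.2% called against 20.4%, with the cargo receptor SQSTM1 at 0.31 (SE 0.044).

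Immediate early genes, which answer growth signals and stress within minutes, rose in 7 of 21 and fell in 2 (4 to 7 and 1 to 3 with 1 left out, fewest without vehicle 2, and 8 and 1 with totals). Besides FOSB, EGR1 stood at 71.9 and 82.5 CPM with vehicle and 112 and 113 CPM with LY500307 (0.54 (SE 0.067)), and the nuclear receptor NR4A3 stood at 0.526 and 0.569 CPM with vehicle and 2.62 and 3.32 CPM with LY500307 (2.43 (SE 0.32)). KLF2, a factor of quiescence, stood at 44.8 and 42.5 CPM with vehicle and 28.04 and 31.1 CPM with LY500307 (-0.56 (SE 0.078)). Feedback and output genes of ERK rose in 3 of 22 and fell in 5 (2 to 3 and 2 to 6 with 1 left out, fewest without vehicle 2, and 5 and 3 with totals). They held the phosphatase DUSP1 at 0.47 (SE 0.054), IER3 at 0.35 (SE 0.05) and EPHA4 at -0.38 (SE 0.055). Cytokines, chemokines and NF-kB targets rose in 9 of 35 and fell in 1 (6 to 8 and 1 with 1 left out, fewest without vehicle 1 or LY500307 1, and 15 and 1 with totals). IL1B, an inflammatory cytokine (chromosome 2, 113587328 to 113594393), stood at 98.1 and 94.8 CPM with vehicle and 149.9 and 145 CPM with LY500307 (0.61 (SE 0.052)), and IL8, a neutrophil chemokine, at 315 and 294 CPM with vehicle and 400.2 and 387 CPM with LY500307 (0.37 (SE 0.052)). CXCL5, a related chemokine, went the other way, with 1317 and 1266 CPM with vehicle and 869.6 and 868 CPM with LY500307 (-0.57 (SE 0.047)). Of the immediate early, ERK and cytokine lists 42.9%, 36.4% and 28.6% were called, and of the cytokine receptors, given below, 26.9%. Over all genes tested it was 20.4%, with 9.16% higher and 11.3% lower. IL24 stood at 35.1 and 31.6 CPM with vehicle and 47.3 and 47.9 CPM with LY500307 (0.51 (SE 0.084)), against 1.52 in control cells, a difference of -1.005 (SE 0.23) that was lost without control vehicle replicate 2 and without control LY500307 replicate 2 (adjusted p 0.147 to 0.160). Cytokine receptors rose in 4 of 26 and fell in 3 (2 to 4 and 2 to 3 with 1 left out, fewest without vehicle 2, and 8 and 2 with totals), LEPR and IL31RA (-0.40 (SE 0.065)) being lower.

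Of 40 interferon-stimulated genes 6 rose and 3 fell (2 to 4 and 0 to 3 with 1 left out, and 10 and 3 with totals), or 22.5% called, close to the 20.4% of all genes tested, and DESeq2 called 2 of them higher. IFIT1, which binds viral RNA, stood at 1.34 and 1.10 CPM with vehicle and 2.36 and 2.83 CPM with LY500307 (1.10 (SE 0.23)). In control cells 14 rose and 1 fell, but the difference in response passed for 1 member. Genes of MHC class I presentation rose in 1 of 17 and fell in 4 (0 to 1 and 0 to 4 with 1 left out, fewest without vehicle 2, and 1 and 2 with totals), with the peptide transporter subunit TAP2 at -0.25 (SE 0.054), lost without knockout vehicle replicate 2 (adjusted p 0.0609). Among 26 WNT pathway genes 3 rose and 3 fell (2 to 3 and 1 to 3 with 1 left out, fewest without vehicle 1 or LY500307 1, and 3 and 1 with totals), and the antagonist DKK1 stood at 245 and 218 CPM with vehicle and 286 and 288 CPM with LY500307 (0.31 (SE 0.049)), opposite to its relative DKK2. TGF-beta and BMP genes rose in 5 of 38 and fell in 2 (3 to 5 and 0 to 3 with 1 left out, fewest without vehicle 2, and 6 and 1 with totals). Follistatin (FST), which binds activin, stood at 44.6 and 37.2 CPM with vehicle and 53.8 and 52.97 CPM with LY500307 (0.39 (SE 0.065)), against -0.13 in control cells, a difference of 0.52 (SE 0.086) (edgeR adjusted p = 3.62e-04). SKIL, a repressor of SMAD factors, changed by 0.40 (SE 0.08) and TGFB2 by 0.41 (SE 0.088). Of 12 EGF family and receptor genes 1 rose and 1 fell (0 to 1 and 0 to 2 with 1 left out, fewest without vehicle 2, and 2 and 0 with totals). Cadherin, vimentin and EMT genes, 3 higher and 2 lower of 22 (1 to 2 and 1 to 2 with 1 left out, and 4 and 2 with totals), included N-cadherin CDH2 (0.26 (SE 0.058)). BCL2 family and cell death genes rose in 2 of 26 and fell in 5 (0 to 2 and 2 to 5 with 1 left out, fewest without vehicle 2 or LY500307 2, and 2 and 2 with totals). The survival protein MCL1 stood at 879 and 821 CPM with vehicle and 721 and 749.8 CPM with LY500307 (-0.21 (SE 0.041)). Of the WNT, TGF-beta and BMP, EGF and cadherin lists 23.1%, 18.4%, 16.7% and 22.7% were called, against 20.4% of all genes tested. For the MHC class I and BCL2 lists the shares called were 29.4% and 26.9%.

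Of 14 oestrogen-responsive genes tested out of 23 listed, 6 rose and 0 fell (3 to 5 and 0 to 1 with 1 left out, fewest without vehicle 2 or LY500307 1, and 6 and 0 with totals), or 42.9% called against 20.4% of all genes tested. The 14 had a median of 0.06 against 0.01 over all genes tested, with 8 members above 0 and 6 below. TFF1, TFF3, CXCL12 and EFHD1 had no count in knockout cells. In control cells 5 rose and 2 fell, against 12.3% and 14% of all genes tested there, and the difference in response passed for 0. XBP1, a known oestrogen target as well as an ER stress factor, stood at 116 and 116 CPM with vehicle and 139 and 141 CPM with LY500307, and the carbonic anhydrase CA12 at 4.17 and 3.95 CPM with vehicle and 6.22 and 6.95 CPM with LY500307 (0.70 (SE 0.16)). GREB1, a classical target, stood at 3.04 and 3.81 CPM with vehicle and 5.29 and 6.28 CPM with LY500307 (0.75 (SE 0.19)), and that call was lost with DESeq2, without knockout vehicle replicate 1 and without knockout LY500307 replicate 2 (adjusted p 0.0640 to 0.0857). Nuclear receptors and their coregulators rose in 4 of 33 and fell in 3 (1 to 4 and 2 to 3 with 1 left out, fewest without vehicle 2, and 8 and 3 with totals). This was 21.2% called, against 20.4% of all genes tested. NR2F2 changed by -0.29 (SE 0.048), the coactivator NCOA3 by 0.31 (SE 0.069) and the retinoic acid receptor RARB, from 28.6 and 28.03 CPM with vehicle and 21.3 and 21.3 CPM with LY500307, by -0.41 (SE 0.084). RARB was at 0.38 (SE 0.096) in control cells, and its response differed by -0.79 (SE 0.13) (edgeR adjusted p = 3.17e-04). Partners of KDM1A in CoREST complexes rose in 2 of 20 and fell in 1 (0 to 2 and 0 to 2 with 1 left out, fewest without vehicle 1 or LY500307 1, and 6 and 0 with totals), or 15% called. Neuronal and neuroendocrine genes, which REST and CoREST repress outside neurons, rose in 6 of 20 and fell in 4 (5 to 7 and 2 to 4 with 1 left out, fewest without vehicle 2, and 6 and 3 with totals). Secretogranin SCG2 stood at 1.38 and 1.64 CPM with vehicle and 3.90 and 4.75 CPM with LY500307 (1.51 (SE 0.22)) and the neurofilament NEFL at 3.68 and 4.35 CPM with vehicle and 6.19 and 7.40 CPM with LY500307 (0.75 (SE 0.14)). STMN3, given above, was among the 4 that fell (-0.37 (SE 0.084)). Stem cell markers of ovarian cancer rose in 1 of 16 and fell in 1 (0 to 1 and 0 to 1 with 1 left out, fewest without vehicle 1, and 2 and 0 with totals).

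Markers were used to check the line and to look for other cells. Of 17 ovarian carcinoma and epithelial markers 10 were tested, 0 rose and 4 fell, among them ARID1A (-0.31 (SE 0.051)) and the keratin KRT18 (-0.17 (SE 0.046), lost with library totals and without knockout vehicle replicate 1 (adjusted p 0.0690 to 0.0819)), while MUC16 and WFDC2 had no count in knockout cells. Haematopoietic markers had 3 of 14 tested and 0 called (0 to 1 and 0 to 1 with 1 left out, fewest without vehicle 1 or vehicle 2, and 1 and 0 with totals), 6 of 14 had no count, and their summed level was 64.3 and 64.7 CPM with vehicle and 76.0 and 63.4 CPM with LY500307. Endothelial markers, 6 of 11 tested, fell in 3 (0 to 1 and 1 to 3 with 1 left out, fewest without vehicle 2, and 0 and 2 with totals), which included ENG (-0.36 (SE 0.047)) and TIE1 (-0.19 (SE 0.047), lost without knockout vehicle replicate 2 (adjusted p 0.120)). Their sum went from 644 and 699.8 CPM with vehicle to 551 and 568 CPM with LY500307, and 3 of 11 (CLDN5, EMCN and PLVAP) had no count. Fibroblast and mesothelial markers, 8 of 13 tested, rose in 1 (PDGFRA, 0.56 (SE 0.085)) and fell in 1, which was COL1A1. The summed level went from 263 and 266 CPM with vehicle to 178 and 199 CPM with LY500307, most of it COL1A1, and DCN had no count. Whether changes of these markers bear on the matrix and adhesion results was not tested.

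**Figure D5:**
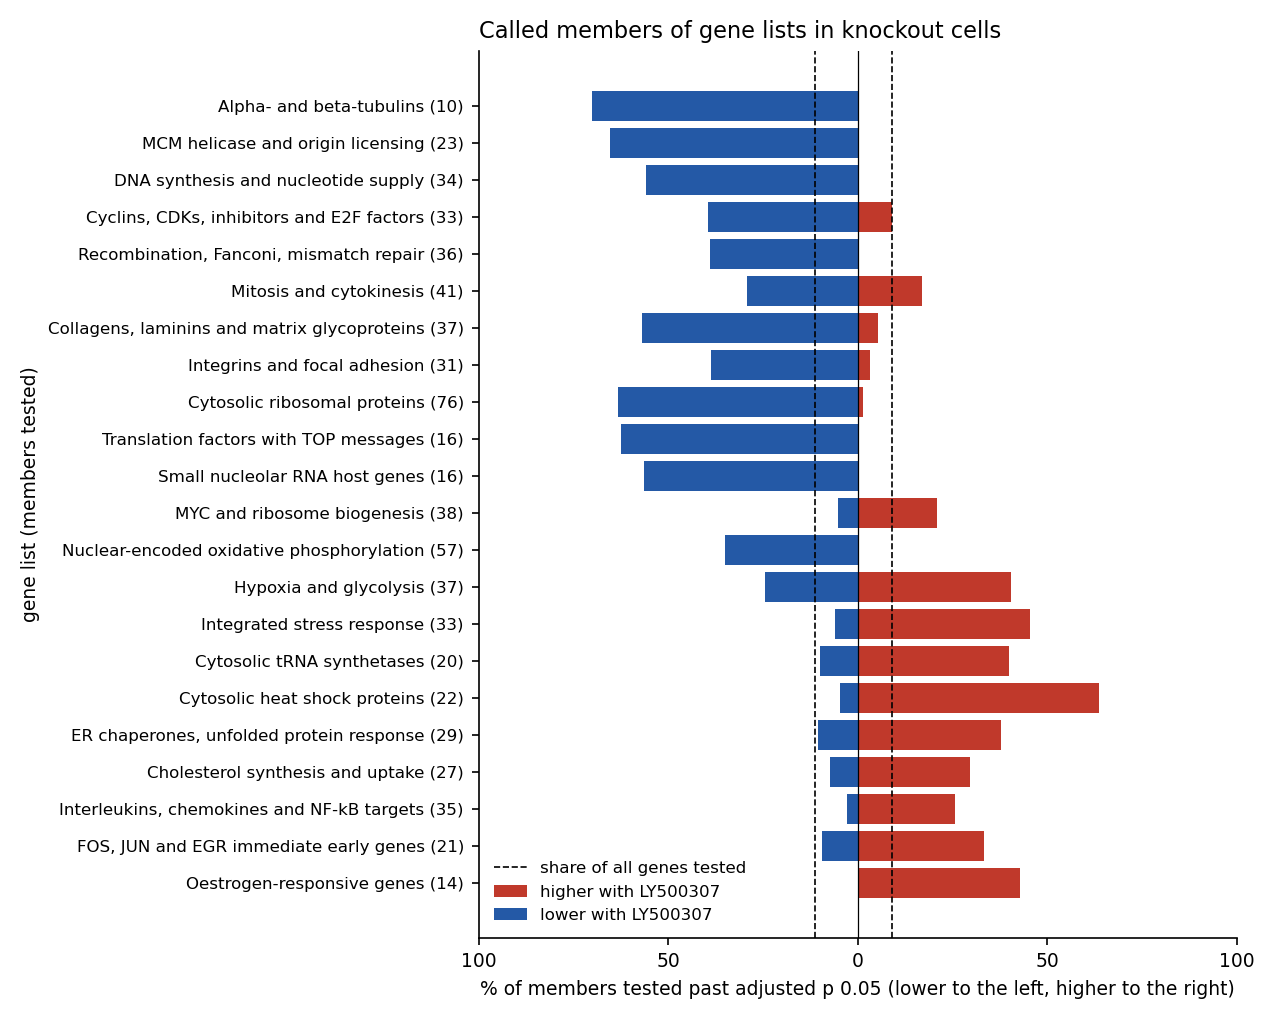
Bars give the percentage of tested members of 22 lists that fell (blue, to the left) or rose (red, to the right) in knockout cells, with the number tested in parentheses. Dashed lines mark the shares of all genes tested, 11.3% lower and 9.16% higher. Tubulin, replication, matrix and ribosomal lists reach 55.9% to 70% lower, and heat shock genes 63.6% higher.

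The responses of knockout and control cells, which share no library, were set side by side. In control cells LY500307 changed 3550 genes (26.3%), 1665 higher and 1885 lower. Genes higher in both numbered 575, or 46.5% of those that rose in knockout and 34.5% of those that rose in control cells. Genes lower in both numbered 898, or 59.0% and 47.6%. Opposite calls were given to 7 genes higher in knockout and lower in control cells and to 21 the other way, and for each of these the difference itself passed. In all, the difference passed for 218 genes, 71 with the higher and 147 with the lower response in knockout cells.

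Among genes that averaged 5 CPM or more in either knockout group, the largest difference towards knockout cells was that of RPL22L1, a paralogue of the ribosomal protein RPL22 (chromosome 3, 170582664 to 170587997). It stood at 69.9 and 60.9 CPM with vehicle and 79.8 and 76.5 CPM with LY500307 in knockout cells and at 172 and 172 CPM with vehicle and 114 and 108 CPM with LY500307 in control cells, higher with LY500307 in knockout and lower in control cells. The rise in knockout cells was lost without knockout vehicle replicate 2 (adjusted p 0.156), with a log2 fold change of 0.16 against 0.26. The difference was 0.89 (SE 0.083), with an edgeR adjusted p of 1.53e-08. Below that level, ATP5E (1.54), CHAC1 (1.47) and ADAMTS5 (1.12), chosen after their values were seen, had larger differences. SLC25A15, a mitochondrial ornithine carrier, followed the same pattern with 0.30 in knockout and -0.34 in control cells (0.63 (SE 0.12)), its rise being lost without knockout vehicle replicate 2 and without knockout LY500307 replicate 2 (adjusted p 0.0985 to 0.147). ZNF48, the WNT regulator FAM123B and the DNA demethylation enzyme TET3 differed by 0.76, 0.59 and 0.56. The call was lost for ZNF48 with DESeq2, and when any 1 of the 8 libraries other than control LY500307 replicate 1 or knockout LY500307 replicate 1 was left out (adjusted p 0.0593 to 0.156), for FAM123B with DESeq2, and when any 1 of the 8 libraries other than control vehicle replicate 1 or knockout LY500307 replicate 2 was left out (adjusted p 0.0523 to 0.0695) and for TET3 with DESeq2, and when any 1 of the 8 libraries other than control vehicle replicate 1 or knockout vehicle replicate 2 or knockout LY500307 replicate 2 was left out (adjusted p 0.0723 to 0.188). In the other direction, DKK2 stood at 6.82 and 6.53 CPM with vehicle and 7.93 and 8.42 CPM with LY500307 in control cells, where its change of 0.29 (SE 0.14) did not pass, so that the fall given above differed by -1.42 (SE 0.2) (edgeR adjusted p = 4.63e-05). SH2D1B, a lymphocyte adaptor, stood at 22.7 and 23.01 CPM with vehicle and 24.3 and 22.9 CPM with LY500307 in knockout cells and at 2.43 and 1.75 CPM with vehicle and 6.43 and 5.14 CPM with LY500307 in control cells, a difference of -1.42 (SE 0.2). The semaphorin SEMA6B (-1.30 (SE 0.21)) and the lectin SIGLEC15 (-1.13 (SE 0.17)) were likewise higher in every knockout library than in any control library and rose with LY500307 in control cells. CADPS, of dense-core vesicles, differed by -1.48 (SE 0.38), lost with DESeq2, and when any 1 of the 8 libraries other than knockout LY500307 replicate 2 was left out (adjusted p 0.0521 to 0.244). CLEC5A, a myeloid lectin, had no count in vehicle-treated control cells and 24 counts in the treated ones, against 61.3 and 57.9 CPM with vehicle and 58.3 and 59.5 CPM with LY500307 in knockout cells, so its fitted difference of -6.53 depends on the prior count and is no bound, and its call was lost without control LY500307 replicate 2 (adjusted p 0.146).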

How the data were processed

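RNA of ES2 cells was sequenced as 50 bp single-end reads, with both an mRNA kit and a total RNA guide named in the labels' protocols. Per the submitters' processing notes, the tools were TopHat2 2.0.8b, HTSeq and bcl2fastq, and the build was hg19. The authors deposited raw counts of reads per gene symbol, 1 table per library. No source used here says whether counting used strand, and genes that overlap on opposite strands cannot be told apart. The 5 closing summary lines were removed. They held 46.6 to 52.8 alignments to more than 1 place per 100 reads that were assigned to a gene, without a feature or ambiguous.

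Counts were tested with edgeR 4.0.16 in R 4.3.3 (limma 3.58.1): TMM scaling, filterByExpr (13498 of 23228 symbols kept, 5520 without a count) and the quasi-likelihood test on 4 group means over all 8 libraries, with 4 residual degrees of freedom. P-values were adjusted by Benjamini-Hochberg over all genes tested, at 0.05. SE is the log2 fold change divided by the square root of F. The difference between responses was a contrast of the same fit. DESeq2 1.42.0, other scalings and filters, a fit of 4 libraries, a replicate block and the omission of single libraries were alternatives. The steps were tested on simulated data.

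The members and the 53 gene lists (1408 genes, 1244 tested) were chosen with earlier results of these data known, so list counts are descriptions. Named genes were the receptors and KDM1A, the 12 largest rises and 12 largest falls past the threshold that averaged 5 CPM or more in either group, with no overlap of libraries, the 6 largest differences between responses in each direction among genes with at least 5 CPM in a knockout group, and up to 4 members per list. A few of these genes were left out of the text. Gene positions are from GENCODE 44 on hg19, found for 18908 symbols directly and 2134 by an older symbol. Promoters were from RefSeq, found by symbol for 9262 genes tested. Libraries held 24348937 to 30131097 counts, and duplicates differed by a median of 0.0677 (vehicle) and 0.0774 (LY500307) log2 units in knockout cells.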

Additional observations from a re-analysis of the deposited data

Results flagged for a closer look

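The response to LY500307 differed between knockout and control cells, by the test of the difference itself in edgeR's quasi-likelihood fit (adjusted p under 0.05), for 41 of the genes named. Values are the log2 response in knockout cells minus that in control cells. Both responses passed with opposite signs for CADPS (-1.48), CDH13 (-0.35), KRT18 (-0.32), RARB (-0.79), RPL22L1 (0.89), SERPINB2 (-0.29), SIGLEC15 (-1.13), SLC25A15 (0.63), STMN3 (-0.61) and ZNF48 (0.76). Both responses passed with the same sign for CDK1 (-0.38), COL1A1 (-0.53), COL6A3 (-0.36), CTGF (-0.22), IL24 (-1.005), MCM5 (-0.28), MMP2 (-0.77), RPS16 (-0.29), TNC (-0.30) and TOP2A (-0.41). The response passed in knockout cells, and missed the threshold in control cells, for ABCA1 (-0.67), DKK2 (-1.42), ETV1 (-0.36), FN1 (-0.37), FST (0.52), ITGB2 (-0.58), KLF2 (-0.42), KRT8 (-0.66), LPCAT3 (-0.45), PLAT (-0.43), PLTP (-0.33), SLC26A4 (-0.97), TUBA1A (-0.34), UBE2C (-0.40) and VEGFA (0.31). The response passed in control cells, and missed it in knockout cells, for CLEC5A (-6.53), FAM123B (0.59), SEMA6B (-1.30), SH2D1B (-1.42), SNHG4 (0.69) and TET3 (0.56). Opposite signs were thus called in the fit as reported, and some of these calls are lost elsewhere. The CLEC5A value rests on a control group without a count and is no bound. CADPS lost its knockout response with library totals, with DESeq2 and without any 1 knockout library (adjusted p 0.0505 to 0.216). CDH13 lost its knockout response without knockout vehicle replicate 2 (adjusted p 0.0663). KRT18 lost its knockout response with library totals and without knockout vehicle replicate 1 (adjusted p 0.0690 to 0.0819). RPL22L1 lost its knockout response without knockout vehicle replicate 2 (adjusted p 0.156). SERPINB2 lost its knockout response with library totals, without knockout vehicle replicate 2 and without knockout LY500307 replicate 2 (adjusted p 0.0570 to 0.114). SIGLEC15 lost its knockout response without knockout vehicle replicate 2 and without knockout LY500307 replicate 1 (adjusted p 0.0666 to 0.148). SLC25A15 lost its knockout response without knockout vehicle replicate 2 and without knockout LY500307 replicate 2 (adjusted p 0.0985 to 0.147). ZNF48 lost its knockout response with DESeq2, in a fit of the 4 knockout libraries alone and without any 1 knockout library (adjusted p 0.0604 to 0.190).

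With DESeq2 the difference was lost for CADPS, FAM123B, KLF2, LPCAT3, PLTP, RPS16, SLC26A4, TET3 and ZNF48, with adjusted p from 0.0513 to 0.293. Without control LY500307 replicate 1 the difference was lost for CADPS, COL6A3, CTGF, ETV1, FAM123B, KLF2, LPCAT3, MCM5, PLTP, RPS16, TET3, TUBA1A and VEGFA, with adjusted p from 0.0552 to 0.154. Without control LY500307 replicate 2 the difference was lost for CADPS, CDH13, CLEC5A, CTGF, FAM123B, IL24, KLF2, KRT8, LPCAT3, MCM5, PLTP, RPS16, SLC26A4, SNHG4, TET3, TNC, TUBA1A, VEGFA and ZNF48, with adjusted p from 0.0614 to 0.236. Without control vehicle replicate 1 the difference was lost for CADPS, CTGF, KRT8, LPCAT3, MCM5, PLTP, RPS16, SNHG4, TNC, TUBA1A and ZNF48, with adjusted p from 0.0589 to 0.269. Without control vehicle replicate 2 the difference was lost for CADPS, CDH13, CTGF, ETV1, FAM123B, IL24, KLF2, PLTP, SLC26A4, TET3, TUBA1A, VEGFA and ZNF48, with adjusted p from 0.0511 to 0.188. Without knockout LY500307 replicate 1 the difference was lost for CADPS, COL6A3, FAM123B, KLF2, KRT8, LPCAT3, MCM5, PLTP, TET3 and VEGFA, with adjusted p from 0.0526 to 0.156. Without knockout LY500307 replicate 2 the difference was lost for CTGF, RPS16, TUBA1A and ZNF48, with adjusted p from 0.0596 to 0.120. Without knockout vehicle replicate 1 the difference was lost for CADPS, CTGF, FAM123B, KLF2, KRT8, LPCAT3, MCM5, SLC26A4, TET3, TUBA1A, VEGFA and ZNF48, with adjusted p from 0.0521 to 0.132. Without knockout vehicle replicate 2 the difference was lost for CADPS, CDH13, CTGF, FAM123B, KLF2, KRT8, LPCAT3, MCM5, PLTP, RPS16, TUBA1A, VEGFA and ZNF48, with adjusted p from 0.0580 to 0.321.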

How the results depend on the processing

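With library totals in place of TMM, 2287 genes were higher and 954 lower in knockout cells, and 2831 and 1011 in control cells. DESeq2 called 723 higher in knockout cells, 1100 higher in control cells and 47 with the higher response in knockout cells. With no filter on low counts 350 responses differed, 248 of them lower in knockout cells. Leaving out 1 library at a time gave 1422 to 2256 genes in knockout cells (537 to 934 higher, 885 to 1322 lower), 2160 to 2326 in control cells (941 to 1015 higher, 1205 to 1311 lower) and 95 to 262 responses that differed (24 to 79 higher, 71 to 183 lower). The lowest count in knockout cells was that without knockout vehicle replicate 2, and the lone library of an arm was then assumed to vary like the other groups. No gene called both in knockout cells and under one of these alternatives changed sign. The cause of these shifts was not tested.

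Replicate numbers are shared between groups, but the sources do not say that a number marks a shared culture or day. The replicate differences of the knockout groups correlated across genes at 6.14e-04, and those of other group pairs at 0.0295 to 0.0700, so the numbers were not taken as pairs. With the replicate block 3540 genes were called in knockout cells, 4271 in control cells and 643 differed (297 higher, 346 lower). Over 231 genes named, 2222 alternative values of called responses kept their call and 129 lost it. For 41 differences 470 kept it and 104 lost it. DESeq2 gave no adjusted p for 6 values. Small differences in genes with few counts, such as ESR1, were not detectable at this depth.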
